A study of Mus musculus with 4 samples.

Results

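The collagen genes encode the triple-helical chains that make up most of the fibrous matrix and part of the basement membranes of a tissue. They were followed here in the livers of fasted Cnot3+/- and wild-type mice. The members are all probe sets that the array platform's annotation assigns to a single gene symbol made of "Col", a type number, "a" and a chain number. This gave 82 of the 45101 probe sets, for 42 collagen genes, out of 18194 genes that have such a probe set. Of these genes, 15 had 1 probe set, and no gene had more than 4. The 42 symbols matched the RefSeq mouse gene table of assembly GRCm38.p6, which lists 44 collagen genes of this naming. The other 2, Col6a6 and Col28a1, were not analysed here.

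Biotin-labelled RNA from 4 livers was hybridised to 4 single-channel Affymetrix arrays. Arrays Cnot3+/- 1 and Cnot3+/- 2 come from heterozygous Cnot3+/- mice, and arrays wild-type 1 and wild-type 2 from wild-type mice. All 4 animals were male C57BL/6J mice, 12 weeks old, kept on normal chow and housed alone without food for 24 h. The labels call the samples of a genotype biological replicates and do not describe the altered Cnot3 allele further. The protein made from Cnot3 belongs to CCR4-NOT, a complex that trims the poly(A) tails of mRNAs and so leads to their decay.

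Collagen chains fold in threes in the endoplasmic reticulum after their prolines and lysines have been hydroxylated, are secreted as procollagens, trimmed by proteases and cross-linked by lysyl oxidases. Fibrillar collagens (types I, III and V among them) form the banded fibres of the interstitium, type IV forms the network of basement membranes, and type VI forms beaded microfibrils beside cells. In a healthy liver, fibrillar collagen is sparse and lies mainly around portal tracts and central veins, and type IV collagen lies along the sinusoids. Stellate cells and portal fibroblasts are the chief makers of fibrillar collagen, and they produce far more of it in fibrosis.

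The 4 arrays had medians of log2 value between 4.62 and 4.66. The Cnot3 transcript was not lower in livers labelled Cnot3+/-. It measured 7.70 and 7.86 on Cnot3+/- 1 and 2, against 7.48 and 8.14 on wild-type 1 and 2, a difference of -0.03 (95% confidence interval -0.65 to 0.58). The other probe set of this gene gave 0.11 (SE 0.14). Where in Cnot3 the alteration lies is not stated in the labels, so the genotypes are taken from the labels alone. Hepatocyte markers, which define the labelled tissue, were bright on all 4 arrays. The albumin gene Alb stood at 14.83 and 14.87 in Cnot3+/- livers, against 14.80 and 14.86 in wild-type livers.

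No collagen gene passed the test between genotypes. A probe set was tested if its mean log2 value over the 4 arrays lay outside the lowest 40% of all probe sets, a limit of 4.06, and 41 of the 82 collagen probe sets (50%), from 30 genes, were tested. Among these, 0 had an adjusted p under 0.05 in limma with Benjamini-Hochberg adjustment over all 27061 probe sets tested, and the adjusted p of each was 1. The background was 2 called probe sets of 27061, or 0.00739%, and both stood higher in Cnot3+/- livers. They are Lcn2, the gene of the acute phase protein lipocalin 2, at 9.52 and 9.71 in Cnot3+/- livers against 5.40 and 5.40 in wild-type livers, and Cox6b2, named here after its values were seen. At an unadjusted p under 0.05, 1 collagen probe set was higher, that of Col5a2, and 0 were lower. The shares of all tested probe sets at that level were 2.1% higher and 1.62% lower.

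Most tested collagens were measured closely enough to bound their difference, but the brightest probe sets of the type I and III chains were not. For 31 of the 41 tested probe sets the 95% confidence interval left out both a doubling and a halving. For 32 it left out a doubling and for 39 a halving. A doubling was not left out for probe sets of Col1a1, Col1a2, Col3a1, Col4a1, Col5a2, Col6a1, Col6a3 and Col14a1. The upper limit for Col3a1 was 2.16 on the log2 scale. The interval of Col5a2 was the one that left out 0. The number of arrays, 2 per genotype, limits the precision of every value.

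The median difference between genotypes was near 0. Over all 82 collagen probe sets it was -0.01 on the log2 scale (Cnot3+/- minus wild-type), beside -0.02 over all probe sets. Over the 41 tested it was 0.01, beside -0.01 over all tested probe sets. Both Cnot3+/- values lay above both wild-type values for 7 of the 82 probe sets (8.54%), where this held for 13.2% of all probe sets. They lay below both wild-type values for 16 of 82 (19.5%), beside 17.9% of all. The 7 were both Col5a2 probe sets and dim, untested probe sets of Col5a1, Col5a3, Col9a3, Col19a1 and Col23a1. Among the 41 tested there were 1 such probe set on the higher side and 10 on the lower side, with backgrounds of 14.5% and 16.5% of all tested probe sets.

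**Figure D1:**
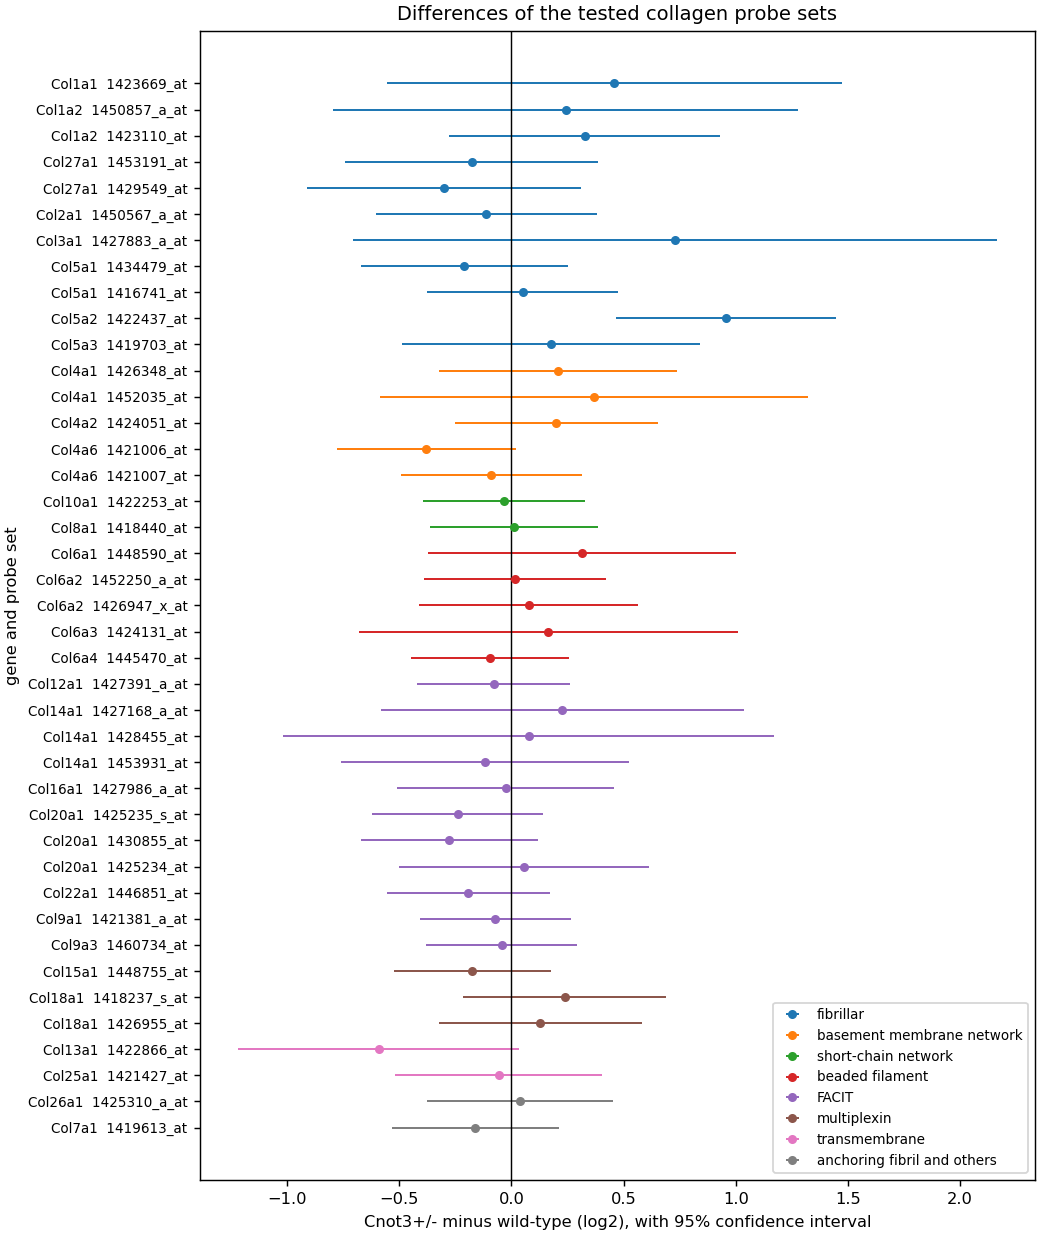
Difference between genotypes (Cnot3+/- minus wild-type, log2 scale, horizontal axis) of the 41 tested collagen probe sets, with bars for the 95% confidence interval of limma and colours for the structural class. The interval of Col5a2, from 0.47 to 1.45, is the one that leaves out 0, and those of Col13a1 and Col4a6 end just above 0.

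The Cnot3+/- animals differed from each other in many fibrillar, basement membrane and beaded filament collagens. Array Cnot3+/- 2 gave the highest of the 4 values for 27 of the 82 collagen probe sets (32.9%), where it did so for 21.6% of all probe sets. Among the 41 tested it was highest for 19 (46.3%), beside 24.2% of all tested probe sets. Several probe sets of 1 gene are counted separately here. With the brightest probe set of each gene alone, it was highest for 12 of 42, and for 12 of the 30 tested. For 22 of the 41, Cnot3+/- 1 lay below both wild-type arrays, as it did for 32.0% of all tested probe sets. For 19 of the 41, Cnot3+/- 2 lay above both wild-type arrays, as it did for 31.5% of all. Col1a1 and the second Col1a2 probe set reached the filter only through high Cnot3+/- values. Counts added after the data were seen cover the 39 tested collagen probe sets whose wild-type mean also reached the limit. Cnot3+/- 2 was highest for 17 (43.6%), beside 23.9% of all such probe sets. It lay above both wild-type arrays for 17 (43.6%), beside 31% of all. Cnot3+/- 1 lay below both for 21 (53.8%), beside 32.3% of all.

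The spread between the Cnot3+/- arrays was also wider than that between the wild-type arrays. Of the tested collagen probe sets, 5 of 41 (12.2%) lay at least 2-fold apart between Cnot3+/- 1 and Cnot3+/- 2, beside 2.67% of all tested probe sets. These 5 were probe sets of Col1a1, Col1a2, Col3a1, Col4a1 and Col14a1, each higher on Cnot3+/- 2. Over those whose wild-type mean also reached the limit, the count was 4 of 39 (10.3%), beside 2.56% of all such probe sets. Between wild-type 1 and wild-type 2 the count was 0 of 41, beside 0.613% of all. By class, Cnot3+/- 2 was highest for 11 of 21 fibrillar, 5 of 12 basement membrane and 4 of 7 beaded filament probe sets, all above the 21.6% of all probe sets. It was highest for 6 of 24 FACIT probe sets (25.0%), near that share, and for 1 of 18 in the other 4 classes (5.56%), below it. These counts describe 2 animals of 1 genotype, several probe sets of 1 gene enter them separately, and no test was made of them.

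**Figure D2:**
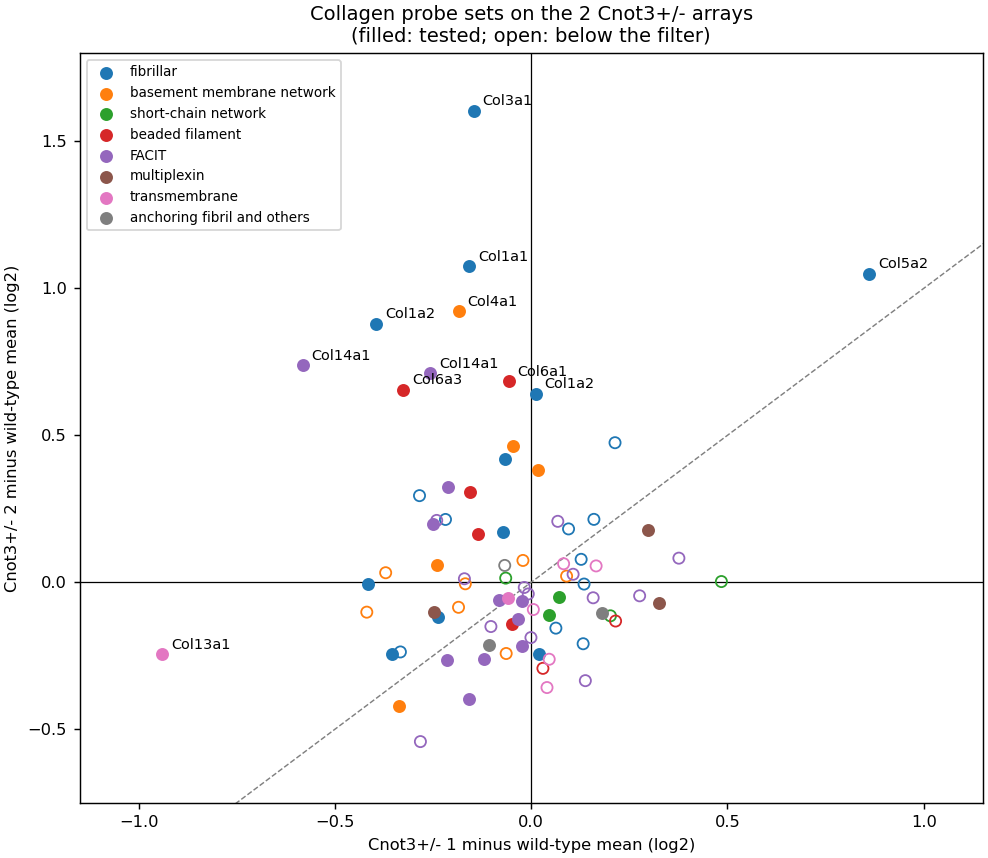
Each collagen probe set on array Cnot3+/- 1 (horizontal axis) and array Cnot3+/- 2 (vertical axis), both as log2 value minus the wild-type mean, with filled points tested and open points below the filter. Col3a1, Col1a1, Col1a2, Col4a1, Col14a1, Col6a1 and Col6a3 lie high on the vertical axis and near or left of 0 on the horizontal axis, while Col5a2 is far above 0 on both.

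The gap between the Cnot3+/- animals was wide in the major interstitial collagens. Col3a1 encodes the chain of type III collagen, the reticular fibre protein of the liver. Its log2 values were 6.82 and 8.57 in Cnot3+/- livers, against 7.23 and 6.71 in wild-type livers. Cnot3+/- 1 thus lay between the wild-type arrays, and Cnot3+/- 2 alone stood above them. The group means differed by 0.73 (SE 0.57, n = 2 each, limma adjusted p = 1), made of -0.15 on Cnot3+/- 1 and 1.60 on Cnot3+/- 2 relative to the wild-type mean. A second, dim Col3a1 probe set below the filter differed by 0.01.

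Type I collagen, the chief load-bearing fibre, is built from Col1a1 and Col1a2 chains. Col1a2 stood at 6.76 and 8.03 in Cnot3+/- livers, against 7.07 and 7.23 in wild-type livers. Its wild-type values lay between those of the Cnot3+/- animals, and the difference was 0.24 (SE 0.41, adjusted p = 1). A second tested Col1a2 probe set had 3.99 and 4.62 in Cnot3+/- livers and 3.88 and 4.08 in wild-type livers (difference 0.33, SE 0.24), and another, untested, differed by 0.10. Col1a1 had 3.85 and 5.08 in Cnot3+/- livers, against 4.12 and 3.89 in wild-type livers, and its difference was 0.46 (SE 0.40, adjusted p = 1). Again Cnot3+/- 2 was alone above the rest. The dimmer Col1a1 probe set had 3.42 and 3.85 in Cnot3+/- livers and 3.84 and 3.44 in wild-type livers, and the means were nearly equal (difference -0.0023).

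The promoters of Col3a1 and Col1a2 are shown because these genes had large differences between the Cnot3+/- animals. Each window runs from 250 bases before to 50 after the annotated start, 5′ to 3′ on the gene's strand, from RefSeq on GRCm38.p6. Capitals mark matches, on either strand, to the TATA box letters TATAAA, to the CCAAT box or to the GC box letters GGGCGG. The Col3a1 window is chr1:45311288-45311587 (+ strand), with its TATAAA 117 bases before the start. The Col1a2 window is chr6:4505368-4505667 (+ strand), with GGGCGG 205 and 188 bases before the start, CCAAT 109 bases before it, and a reverse-strand CCAAT at the start itself. No 2 different motifs overlapped there (0 overlaps).
Col3a1: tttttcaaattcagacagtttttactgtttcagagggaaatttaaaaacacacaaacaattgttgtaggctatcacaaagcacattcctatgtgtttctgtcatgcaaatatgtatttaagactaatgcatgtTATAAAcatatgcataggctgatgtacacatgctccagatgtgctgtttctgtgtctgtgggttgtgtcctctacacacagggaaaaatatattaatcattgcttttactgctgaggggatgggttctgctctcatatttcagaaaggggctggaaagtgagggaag
Col1a2: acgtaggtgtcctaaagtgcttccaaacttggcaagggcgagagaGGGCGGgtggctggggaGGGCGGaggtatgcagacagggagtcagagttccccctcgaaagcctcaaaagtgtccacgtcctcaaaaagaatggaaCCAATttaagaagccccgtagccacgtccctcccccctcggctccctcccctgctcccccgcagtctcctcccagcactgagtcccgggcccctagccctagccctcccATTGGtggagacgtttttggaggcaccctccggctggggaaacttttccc

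Over the family, 33 of the 42 genes had a window in the table, 36 windows in all. Of these, 5 (13.9%) held TATAAA, beside 13.6% of the 32851 windows of all genes, and 13 (36.1%) held CCAAT, beside 37.4%. GGGCGG was in 22 (61.1%), beside 35.7%. A match is a run of letters and does not show a bound factor. No window is printed for Col12a1, Col14a1, Col1a1, Col22a1, Col26a1, Col2a1, Col4a3, Col5a2 and Col9a3.

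Type V collagen chains join type I fibrils and help to start them. Col5a2 was the one collagen probe set with unadjusted p under 0.05, and both of its Cnot3+/- values lay above both wild-type values. It stood at 5.93 and 6.12 in Cnot3+/- livers, against 5.28 and 4.85 in wild-type livers. The Cnot3+/- livers agreed closely with each other here, unlike for Col3a1 or Col1a2. The difference was 0.96 (SE 0.20, adjusted p = 1), which is 1.94-fold (95% confidence interval 1.38 to 2.73). Its unadjusted p was 0.00362, and the difference ran from 0.74 to 1.17 with any 1 array left out. A second, dim Col5a2 probe set below the filter read 3.26 and 3.32 in Cnot3+/- livers, against 3.11 and 3.09 in wild-type livers, and was not tested. Col5a2 is the neighbour of Col3a1 on chromosome 1 in the gene order of GRCm38.p6, and of this pair only Col5a2 stood above both wild-type values in both Cnot3+/- animals.

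The partner chains of Col5a2 had smaller differences, and whether they differ from that of Col5a2 was not tested. Col5a1 had 5.52 and 5.93 in Cnot3+/- livers, against 5.98 and 5.90 in wild-type livers (difference -0.21, SE 0.18, adjusted p = 1). Its other probe sets differed in sign from this one. They read 4.32 and 4.56 in Cnot3+/- livers against 4.27 and 4.51 in wild-type livers (0.05, SE 0.17), and, below the filter, 3.95 and 4.21 against 3.67 and 3.81. Col5a3, a further type V chain, had 6.96 and 7.44 in Cnot3+/- livers, against 6.74 and 7.31 in wild-type livers (0.18, SE 0.26). Its groups overlapped, and its dim second probe set, untested, differed by 0.14.

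The fibrillar collagens best known from cartilage and bone lay near wild-type or were dim. Col27a1, whose type XXVII collagen is found in cartilage, had 8.03 and 8.15 in Cnot3+/- livers, against 7.98 and 8.56 in wild-type livers (difference -0.18, SE 0.23). A second Col27a1 probe set differed by -0.30 (SE 0.24). Here wild-type 2 was the array that stood apart. Col2a1, the gene of the main cartilage collagen, had 5.05 and 4.79 in Cnot3+/- livers and 5.23 and 4.83 in wild-type livers (-0.11, SE 0.20). Col11a1, Col11a2 and Col24a1 had no tested probe set. Of the 11 fibrillar probe sets tested, 7 were above 0 and 4 below, with a median difference of 0.18. The 7 include Col1a1 and the second Col1a2 probe set, which reached the filter only through Cnot3+/- 2. Over all 21 fibrillar probe sets, 13 were above 0 and 8 below, with a median of 0.06.

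**Figure D3:**
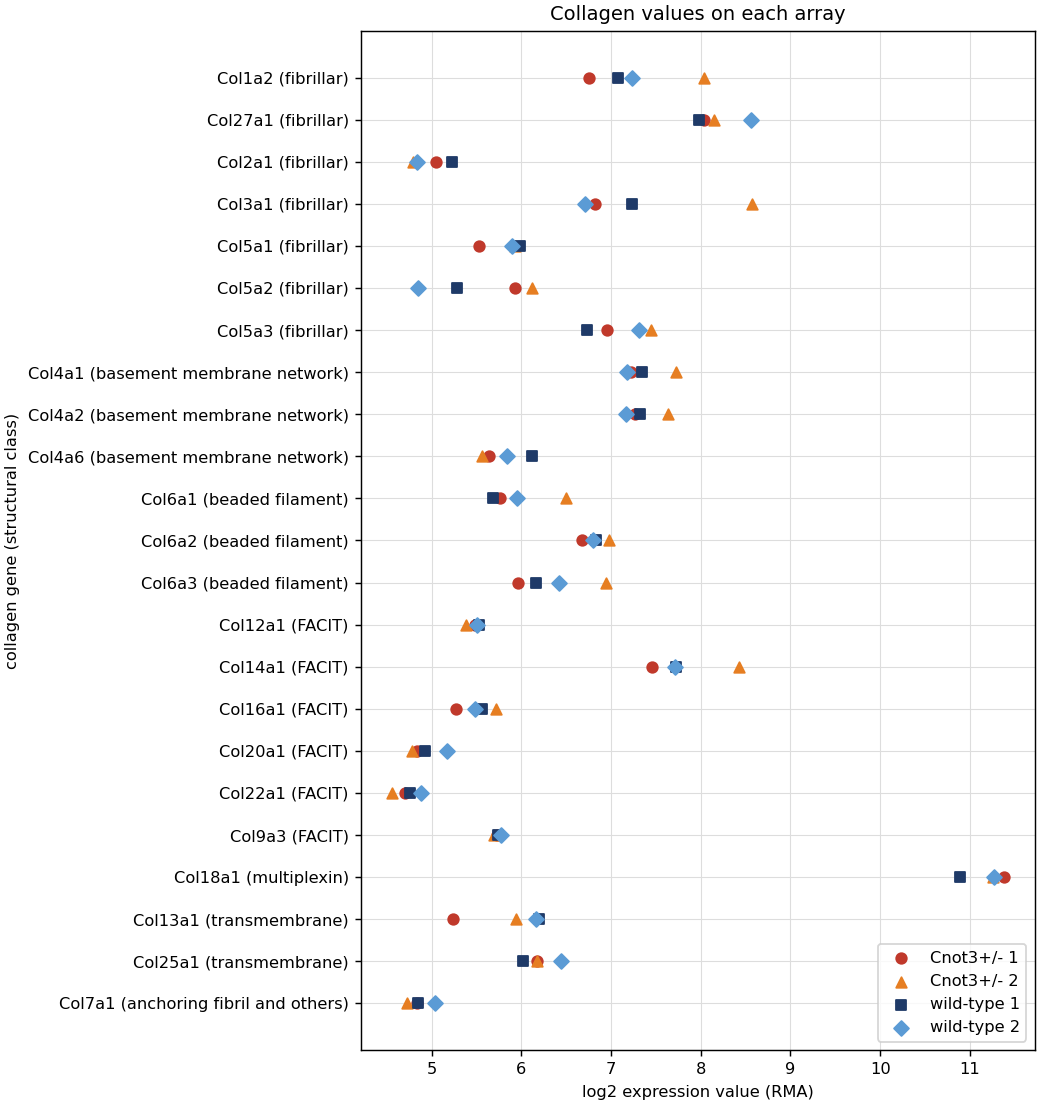
Log2 expression value (RMA, horizontal axis) on each of the 4 arrays for the brightest probe set of the 23 collagen genes described with values per array because it lay above the median of all probe sets. In Col3a1, Col1a2, Col14a1, Col6a1 and Col6a3 the Cnot3+/- 2 triangle is to the right of the 3 other arrays, and in Col5a2 both Cnot3+/- symbols are to the right of both wild-type symbols. Levels of different probe sets should not be compared.

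Among basement membrane collagens, Col4a1 and Col4a2 encode the chains of the network found in nearly every basement membrane and along the liver sinusoids. Col4a1 had 7.22 and 7.73 in Cnot3+/- livers, against 7.35 and 7.18 in wild-type livers (difference 0.21, SE 0.21, adjusted p = 1). On its second probe set it had 6.83 and 7.94 in Cnot3+/- livers and 7.21 and 6.82 in wild-type livers (0.37, SE 0.38). Col4a2 had 7.26 and 7.63 in Cnot3+/- livers, against 7.33 and 7.17 in wild-type livers (0.20, SE 0.18). All 3 probe sets were highest on Cnot3+/- 2, and on all 3 Cnot3+/- 1 lay within the wild-type range.

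Col4a1 and Col4a2 lie head to head on chromosome 8 and their windows are shown because they overlap. The annotated starts are 21 bases apart and the annotated 5′ ends of both genes overlap, so the stretch shared by both windows is not a promoter lying between them. The Col4a1 window is chr8:11312777-11313076 (− strand) and the Col4a2 window chr8:11312555-11312854 (+ strand), from RefSeq on GRCm38.p6 and 5′ to 3′ on each gene's strand. Capitals mark the 78 bases that both windows hold, chr8:11312777-11312854, which in one window are the reverse complement of those in the other. Each window also has 1 CCAAT match and 0 of TATAAA, and GGGCGG has 1 match in that of Col4a1 and 3 in that of Col4a2.
Col4a1: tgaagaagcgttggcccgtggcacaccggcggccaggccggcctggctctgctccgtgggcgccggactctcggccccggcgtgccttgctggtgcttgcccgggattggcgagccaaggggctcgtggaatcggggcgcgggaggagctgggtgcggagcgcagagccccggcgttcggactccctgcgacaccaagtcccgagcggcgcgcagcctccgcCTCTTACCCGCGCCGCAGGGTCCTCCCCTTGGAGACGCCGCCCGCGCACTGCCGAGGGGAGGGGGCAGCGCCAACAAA
Col4a2: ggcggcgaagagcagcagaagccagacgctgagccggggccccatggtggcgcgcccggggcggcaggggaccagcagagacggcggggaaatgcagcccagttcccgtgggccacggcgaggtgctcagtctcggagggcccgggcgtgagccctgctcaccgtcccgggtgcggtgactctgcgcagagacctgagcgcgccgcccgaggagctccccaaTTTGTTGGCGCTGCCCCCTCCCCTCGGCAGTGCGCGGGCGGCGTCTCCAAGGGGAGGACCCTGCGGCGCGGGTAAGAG

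The remaining type IV chains were lower or mixed. Col4a6, known from the basement membranes of smooth muscle, had 5.64 and 5.56 in Cnot3+/- livers, against 6.12 and 5.84 in wild-type livers. Both Cnot3+/- values were below both wild-type values, and the difference was -0.38 (SE 0.16, 95% confidence interval -0.78 to 0.02, adjusted p = 1). Its second probe set was highest on Cnot3+/- 2, as was a dim, untested Col4a5 probe set, and differed by -0.09 (SE 0.16) with overlapping groups. Its head-to-head neighbour on the X chromosome, Col4a5, was below the filter. Col4a3, Col4a4 and Col4a5, chains of the kidney filter's basement membrane, had dim values with untested differences of -0.26, -0.15 and -0.14 on their brightest probe sets, each with both Cnot3+/- values below both wild-type values.

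Type VI collagen is built from Col6a1, Col6a2 and Col6a3 chains and forms beaded filaments near cells. Col6a1 had 5.76 and 6.50 in Cnot3+/- livers, against 5.68 and 5.95 in wild-type livers (difference 0.31, SE 0.27, adjusted p = 1). Col6a3 had 5.97 and 6.95 in Cnot3+/- livers, against 6.16 and 6.42 in wild-type livers (0.16, SE 0.34). Both were highest on Cnot3+/- 2, by over 0.5 above the nearest array. Col6a2, the neighbour of Col6a1 on chromosome 10, had 6.68 and 6.98 in Cnot3+/- livers and 6.84 and 6.80 in wild-type livers (0.01, SE 0.16). It too was highest on Cnot3+/- 2, but the spread was small, and a second Col6a2 probe set differed by 0.08 (SE 0.19). Col6a4, a chain that can stand in for Col6a3, differed by -0.10 (SE 0.14), and its second probe set by 0.04. Those 2 Col6a4 probe sets are the members just inside and just outside the filter, with means of 4.10 and 4.05. Col6a5 had no tested probe set.

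The FACIT collagens sit on the surface of fibrils and link them to other matrix. Col14a1, whose type XIV collagen coats type I fibrils, had 7.46 and 8.43 in Cnot3+/- livers, against 7.72 and 7.71 in wild-type livers (difference 0.23, SE 0.32, adjusted p = 1). A second probe set had 5.97 and 7.29 in Cnot3+/- livers, against 6.38 and 6.72 in wild-type livers (0.08, SE 0.44). On both, the Cnot3+/- arrays lay on either side of the wild-type arrays. A further, dim probe set differed in sign, with 4.23 and 4.04 in Cnot3+/- livers and 3.90 and 4.60 in wild-type livers (-0.12, SE 0.26). Col16a1, another fibril-associated chain, had 5.27 and 5.72 in Cnot3+/- livers, against 5.56 and 5.48 in wild-type livers (-0.03, SE 0.19). Its Cnot3+/- arrays also enclosed the wild-type pair.

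The remaining FACIT genes were close to wild-type or slightly below it. Col12a1, a second fibril-coating type, had 5.48 and 5.39 in Cnot3+/- livers, against 5.52 and 5.50 in wild-type livers (-0.08, SE 0.14). Col20a1 had 4.83 and 4.78 in Cnot3+/- livers, against 4.93 and 5.17 in wild-type livers (-0.24, SE 0.15). Its probe sets did not share a sign, since the others tested differed by -0.28 (SE 0.16) and 0.06 (SE 0.22). Col22a1, known from muscle and tendon junctions, had 4.70 and 4.56 in Cnot3+/- livers and 4.75 and 4.88 in wild-type livers (-0.19, SE 0.14). Col9a3, a cartilage chain, had 5.73 and 5.69 in Cnot3+/- livers and 5.74 and 5.78 in wild-type livers (-0.04, SE 0.13). The chain gene Col9a1 differed by -0.07 (SE 0.13). Of the 11 FACIT probe sets tested, 6 had both Cnot3+/- values below both wild-type values, 0 had both above (16.5% and 14.5% of all tested probe sets), and the furthest of these 6 differences was -0.28.

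Col18a1 is a multiplexin, a basement membrane collagen whose cleaved end is endostatin, and hepatocytes are known to make it. It had 11.38 and 11.26 in Cnot3+/- livers, against 10.89 and 11.27 in wild-type livers (difference 0.24, SE 0.18, adjusted p = 1). Its second probe set had 10.84 and 10.45 in Cnot3+/- livers and 10.56 and 10.48 in wild-type livers (0.13, SE 0.18). Unlike the interstitial collagens, both Col18a1 probe sets were highest on Cnot3+/- 1. Col15a1, the other multiplexin, had 4.14 and 4.28 in Cnot3+/- livers, against 4.38 and 4.39 in wild-type livers (-0.17, SE 0.14), so that both Cnot3+/- values were below both wild-type values.

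Col13a1 had the largest negative difference of the tested collagens. It encodes a transmembrane collagen of cell-matrix contacts. Its values were 5.24 and 5.94 in Cnot3+/- livers, against 6.20 and 6.16 in wild-type livers. Both Cnot3+/- animals were below both wild-type animals, Cnot3+/- 1 by more. The difference was -0.59 (SE 0.25, adjusted p = 1), or 0.663-fold (95% confidence interval 0.429 to 1.02), and its value was -0.94 when Cnot3+/- 2 was left out and -0.24 when Cnot3+/- 1 was. Col25a1, a transmembrane collagen of neurons, had 6.17 and 6.18 in Cnot3+/- livers, against 6.02 and 6.44 in wild-type livers (-0.06, SE 0.18). Col17a1, the collagen of skin hemidesmosomes, and Col23a1 were below the filter.

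Col7a1, which forms the anchoring fibrils of skin, had 4.84 and 4.73 in Cnot3+/- livers, against 4.85 and 5.04 in wild-type livers (difference -0.16, SE 0.15). Its Cnot3+/- values were both below the wild-type values in this gene too, with Cnot3+/- 1 close to wild-type 1. The short-chain network genes Col8a1, of vessels and the cornea, and Col10a1, of growth cartilage, differed by 0.01 (SE 0.15) and -0.03 (SE 0.14). Col26a1 differed by 0.04 (SE 0.16).

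In 12 genes no probe set was tested, namely Col4a3, Col4a4, Col4a5, Col6a5, Col8a2, Col9a2, Col11a1, Col11a2, Col17a1, Col19a1, Col23a1 and Col24a1. Differences of the 41 untested collagen probe sets ran from -0.41 to 0.34. The lowest was that of Col19a1, at 2.97 and 2.71 in Cnot3+/- livers against 3.20 and 3.30 in wild-type livers, and another Col19a1 probe set had 2.97 and 2.68 in Cnot3+/- livers against 2.60 and 2.59 in wild-type livers. These 2 probe sets of 1 gene were both apart between the groups and opposite in sign. Of the 27 genes with several probe sets, 15 had probe sets on both sides of 0. Such dim values carry little information on their transcripts, and no detection call was used.

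Genes of collagen chain modification and folding had a median close to wild-type. Of 32 tested probe sets for 18 such genes, 21 were above 0 and 11 below, with a median difference of 0.05 and 0 past the threshold. The groups did not overlap in 4 on the higher side and 2 on the lower, beside 14.5% and 16.5% of all tested probe sets. P4hb, the beta subunit of prolyl hydroxylase, had 13.01 and 13.08 in Cnot3+/- livers, against 12.89 and 13.00 in wild-type livers (0.10, SE 0.14). The cyclophilin gene Ppib differed by 0.09 (SE 0.14). The largest differences were those of the prolyl 3-hydroxylase family gene P3h3 at -0.50 (SE 0.22) and of Mia3, whose protein loads procollagen into transport vesicles, at 0.35 (SE 0.25). Outside the naming rule and chosen after their values were seen, the collagen chaperone gene Serpinh1 had 4.48 and 5.87 in Cnot3+/- livers, against 5.02 and 5.18 in wild-type livers, and a probe set of Sparc, whose protein binds collagen, had 7.31 and 8.30 against 7.98 and 7.49. In both, Cnot3+/- 1 lay below and Cnot3+/- 2 above both wild-type arrays. Another Sparc probe set did not take this order, with 6.04 and 5.85 in Cnot3+/- livers against 6.16 and 5.90 in wild-type livers. The list was mixed in this. Of its 32 tested probe sets, 13 were highest on Cnot3+/- 2, a share above the 24.2% of all tested probe sets, and 12 were highest on Cnot3+/- 1.

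Genes of procollagen trimming and cross-linking also had 0 calls. Of 10 tested probe sets, 4 were above 0 and 6 below (median -0.07), and 3 had non-overlapping groups, all on the lower side (16.5% of all tested probe sets). Bmp1, which removes the procollagen C-terminal domain, differed by -0.11 (SE 0.14). Its enhancers Pcolce2 and Pcolce differed by -0.35 (SE 0.35) and 0.03 (SE 0.28), and the lysyl oxidase-like gene Loxl4 by -0.17 (SE 0.15). The lysyl oxidase gene Lox was below the filter.

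The list of collagen-degrading enzymes and their inhibitors had 18 of 21 tested probe sets below 0, with a median of -0.10 and 0 called. Of these 21, 5 had non-overlapping groups on the lower side and 1 on the higher side, beside 16.5% and 14.5% of all tested probe sets. Timp3, an inhibitor of matrix metalloproteinases, had 5.25 and 5.91 in Cnot3+/- livers, against 5.99 and 6.73 in wild-type livers (-0.78, SE 0.33, adjusted p = 1). Its 3 other probe sets differed by -0.60 (SE 0.34), -0.52 (SE 0.23) and -0.49 (SE 0.22). All 4 Timp3 probe sets were lower on average, and Cnot3+/- 1 gave the lowest value on each. The collagenase-activating membrane protease gene Mmp14 differed by -0.06 (SE 0.14), and the inhibitor gene Timp2 by -0.18 (SE 0.29) on its brightest probe set. Timp1, an inhibitor known to mark liver fibrosis, was below the filter.

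Collagen receptors had 5 of 12 tested probe sets above 0 and 7 below (median -0.01), with 0 called. The discoidin receptor gene Ddr1 differed by 0.62 (SE 0.36) on one probe set and by -0.29 (SE 0.14) on another. The inhibitory immune receptor gene Lair1 differed by 0.46 (SE 0.21), and the integrin beta chain gene Itgb1 by -0.01 (SE 0.14) and 0.07 (SE 0.13).

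Proteins that decorate collagen fibrils included the one list member outside the collagens with an unadjusted p under 0.05 on the higher side, Postn. Postn, the gene of periostin, had 7.24 and 7.37 in Cnot3+/- livers, against 6.77 and 6.24 in wild-type livers (0.79, SE 0.21, adjusted p = 1). As with Col5a2, both Cnot3+/- animals stood above both wild-type animals. The fibronectin gene Fn1 differed by 0.27 (SE 0.20) and 0.61 (SE 0.33). The decorin gene Dcn had 10.54 and 11.60 in Cnot3+/- livers, against 10.94 and 11.12 in wild-type livers (0.04, SE 0.35), the same order of arrays as Col1a2. In the list, 8 of 18 tested probe sets were above 0 and 10 below (median -0.03).

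Basement membrane partners of type IV collagen had 4 of 18 tested probe sets above 0 and 14 below (median -0.06), with 0 called. The nidogen gene Nid1 differed by 0.44 (SE 0.26) on one probe set and -0.13 (SE 0.45) on another. The laminin genes Lamb3 and Lama5 differed by -0.42 (SE 0.19) and -0.37 (SE 0.15), and Hspg2, the gene of perlecan, by -0.13 (SE 0.22). A second, dimmer Lama5 probe set went the other way (0.17, SE 0.15), with both Cnot3+/- values above both wild-type values. TGF-beta and PDGF genes, whose signals drive collagen transcription in stellate cells, had 17 of 25 tested probe sets above 0 and 8 below (median 0.10), 6 of the 25 apart on the higher side (14.5% of all tested probe sets) and 0 called. The receptor gene Tgfbr2 had 8.35 and 9.13 in Cnot3+/- livers, against 8.48 and 7.87 in wild-type livers (0.56, SE 0.33). A second Tgfbr2 probe set differed by 0.45 (SE 0.25). The signal transducer gene Smad4 differed by 0.19 (SE 0.16) and 0.18 (SE 0.20) on its brightest probe sets and by 0.36 (SE 0.20) on another. Cnot3+/- 2 was highest for 11 of 18 tested fibril-decorating probe sets, 9 of 18 of basement membrane partners and 5 of 10 of trimming and cross-linking. It was highest for 10 of 25 of TGF-beta and PDGF genes, 5 of 12 of receptors and 6 of 21 of degradation. The background was 24.2% of all tested probe sets.

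Cell type markers on the same arrays are given as list means over tested probe sets minus the wild-type mean. All collagens stood at -0.12 on Cnot3+/- 1 and 0.20 on Cnot3+/- 2, and at -0.03 and 0.03 on the wild-type arrays. The wild-type values of a list are equal and opposite because they are taken from their own mean. Their closeness to 0 is thus partly fixed in advance and is no measure of spread for the Cnot3+/- values. The fibrillar class stood at -0.09 and 0.48, the basement membrane class at -0.16 and 0.28, and the beaded filament class at -0.14 and 0.33 on Cnot3+/- 1 and Cnot3+/- 2. The values of all collagens and of the fibrillar class include Col1a1 and the second Col1a2 probe set, which reached the filter only through Cnot3+/- 2. The mean of stellate cell markers took the same order, at -0.29 and 0.33, with 18 of 25 probe sets and all 11 genes tested. In the difference of means, 9 probe sets were above and 9 below 0. Of the 18, 11 were highest on Cnot3+/- 2 and 3 on Cnot3+/- 1. Those 3, named after their values were seen, belong to Hhip (0.28 on Cnot3+/- 1 and -0.56 on Cnot3+/- 2), Acta2 and Des. Several Vim probe sets, one at 0.96 on Cnot3+/- 2, enter this mean separately, and it was not taken without them. The list's members of largest difference were Reln at -0.37 (SE 0.26) and Vim at 0.36 (SE 0.40). Its brightest were Ecm1 at -0.05 (SE 0.24) and Colec11 at 0.02 (SE 0.25). Portal fibroblast markers stood at -0.03 and 0.09, with Thy1 differing by 0.33 (SE 0.39) and Entpd2 by -0.24 (SE 0.18). In bulk liver, fewer cells of a type and less RNA per cell cannot be told apart.

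Kupffer cell and sinusoidal endothelial markers stood further from wild-type than the collagens. All 11 tested Kupffer cell and macrophage probe sets were highest on Cnot3+/- 2, and their mean stood at -0.26 on Cnot3+/- 1 and 1.93 on Cnot3+/- 2. The scavenger receptor gene Marco had 6.40 and 9.49 in Cnot3+/- livers, against 5.73 and 5.85 in wild-type livers. Marco thus stood above both wild-type values on Cnot3+/- 1 too, unlike the list, whose median there was -0.29 relative to the wild-type mean. Of the 11 probe sets, 3 were apart on the higher side, beside 14.5% of all tested probe sets. Sinusoidal endothelial markers stood at -1.02 on Cnot3+/- 1 and -0.25 on Cnot3+/- 2, with 14 of 14 probe sets lower on average, 9 apart on the lower side (16.5% of all tested probe sets) and 7 lower at an unadjusted p under 0.05 (1.62% of all). The lectin gene Clec4g had 8.40 and 9.60 in Cnot3+/- livers, against 9.99 and 10.01 in wild-type livers. Hepatocyte markers stood at 0.11 and 0.08, and cholangiocyte markers at 0.07 and 0.27. In each cell type list the wild-type arrays stood between -0.11 and 0.11 around their own mean. No probe set of these lists was called. The part of these marker shifts in the collagen values was not tested.

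**Figure D4:**
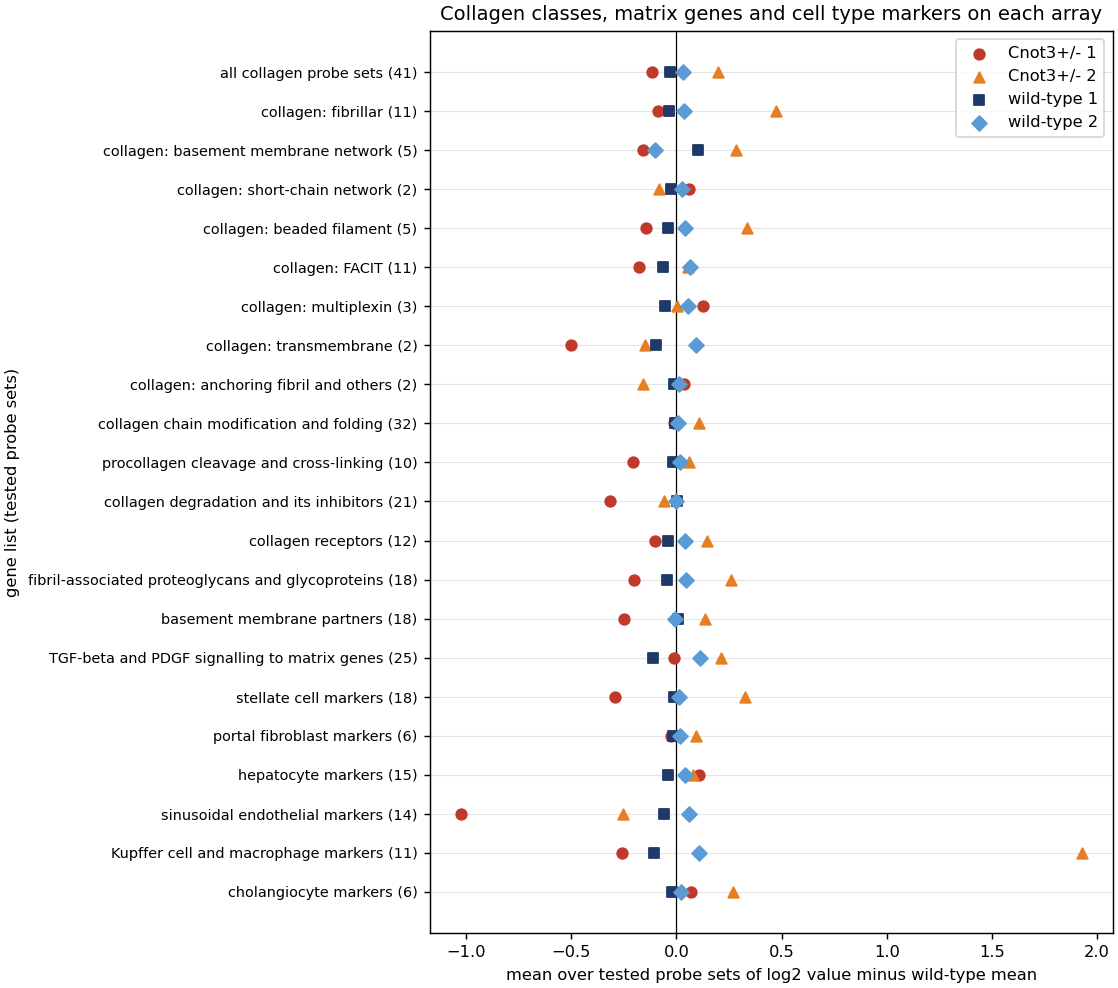
Mean over the tested probe sets of each list (number in brackets) of log2 value minus the wild-type mean, on each of the 4 arrays. Fibrillar, basement membrane and beaded filament collagens, stellate cell markers and macrophage markers are highest on Cnot3+/- 2, and sinusoidal endothelial markers are lowest on Cnot3+/- 1.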

How the data were processed

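The deposited table holds log2 expression values of 45101 probe sets on 4 arrays, made by the authors. Per the submitters' processing notes, the method was RMA, which corrects background, normalizes across arrays, summarises the probes of a probe set and compresses differences of dim ones. Neither its version nor the set of arrays it was run on is given in the sources used here, and no scanner files were used. The log2 scale was read from the values, 1.85 to 14.96. All 4 columns were mapped to samples by their labels.

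Probe sets were named through the platform's annotation, whose symbols can be old. It gives 34958 probe sets 1 symbol, 932 several and 9211 none. Array coordinates were not used, and promoter coordinates are those of RefSeq on GRCm38.p6.

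Values were used without further normalization. The lowest 40% of mean log2 values (below 4.06) were left out, which kept 27061 probe sets. The comparison of genotypes used lmFit and eBayes of limma 3.58.1 under R 4.3.3, per probe set, with a two-sided test and no covariate. P-values were adjusted by Benjamini-Hochberg over all 27061, with a threshold of 0.05. The fit had 2 residual degrees of freedom with 3.41 more from the prior, whose SD was 0.167. A difference is the Cnot3+/- mean less the wild-type mean in log2 units, given with limma's moderated standard error (SE) and a 95% interval. The fit was tested on simulated data with planted differences larger than any collagen difference reported here. It does not show how often differences of the collagens' size would be called.

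Values per array are given for collagen genes whose brightest probe set lay above the median of all probe sets (4.63), for probe sets apart between the groups by at least 0.5, and for genes whose probe sets differ in sign, of which the dim ones are given by their differences or range. Of each other list, the 2 brightest members and the 2 of largest difference are named, apart from 5 cell type lists. For portal fibroblast, hepatocyte, Kupffer cell, sinusoidal endothelial and cholangiocyte markers, fewer members or none are named. The members and lists were chosen with earlier results of these data known. Replicate numbers of the labels did not pair the animals in any stated way.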

Additional observations from a re-analysis of the deposited data

How the results depend on the processing

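With 2 animals per genotype, array number and signal over background limit what can be seen, and a change of a dim transcript may be missed. Under 11 alternatives (no filter, the lowest 60% left out, 1 probe set per gene, quantile normalization, no moderation of variances, an intensity trend, a replicate block, and each array left out), 0 collagen probe sets were called. Their smallest adjusted p was 0.220, without Cnot3+/- 1, with 10 of 41 at an unadjusted p under 0.05, beside 5.97% of all probe sets in that setting. Over all probe sets, 0 were called with the replicate block, whose numbers the labels do not tie to a shared litter or day (correlation of deviations 0.17), and 0 to 0 with an array left out, against 2 otherwise. With no moderation the 2 called were Ncbp3 and Srsf1, and 0 of them were Lcn2 or Cox6b2. The median collagen difference was 0.10 with the lowest 60% left out, where fewer probe sets enter, and ran from -0.054 to 0.040 with an array left out.

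Of 33 collagen probe sets followed, 14 kept their sign in every setting. Col6a2 turned to -0.033 after quantile normalization. The others turned with an array left out, and their ranges follow. Fibrillar collagens: Col1a1 -0.16 to 1.08, Col1a2 -0.40 to 0.88, Col2a1 -0.31 to 0.088, Col3a1 -0.15 to 1.60, Col5a1 (second probe set) -0.074 to 0.17, Col5a3 -0.11 to 0.46 and Col27a1 -0.47 to 0.12. Network and filament collagens: Col4a1 -0.047 to 0.46, Col6a1 -0.057 to 0.68, Col6a2 -0.14 to 0.16, Col6a3 -0.33 to 0.66 and Col8a1 -0.084 to 0.10. FACIT and other collagens: Col14a1 -0.26 to 0.71, -0.58 to 0.74 and -0.47 to 0.23 on its 3 probe sets, Col16a1 -0.25 to 0.20, Col20a1 (its dimmest tested probe set) -0.21 to 0.32, Col25a1 -0.27 to 0.15 and Col26a1 -0.10 to 0.18. The cause was not tested. In a count added after the data were seen, collagen probe sets with groups apart numbered 20 to 30 higher and 27 to 34 lower with an array left out, where 1 array against 2 separates more easily, against 7 and 16 with all arrays.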
